A study of Mus musculus with 8 samples.

Results

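The genes described here encode the non-collagen part of the extracellular matrix and the enzymes that build and cut it. They were 46 genes, taken by name from the 27218 gene names on a mouse array, and they were represented by 79 probes. For description they fall into fibronectin, elastic fibre and microfibril proteins, basement membrane proteins, proteoglycans, matricellular proteins, crosslinking enzymes, procollagen processing factors, proteases and protease inhibitors. Each gene was represented by the probe with the highest mean signal. The test covered 43 of the 46 genes, because no probe of Mfap5, Vcan or Lox was well above background on both arrays of any diet group. Of the 43 genes, 33 were well above background on all 8 arrays, and 5 (Fbn2, Thbs1, Tnc, Mmp12 and Mmp13) entered the test through the LF_LF group alone, a choice that favours a higher signal there.

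The RNA came from whole livers of C57Bl/6J mice, an inbred strain; all were wild-type males aged 14 weeks, fasted for 4 h. In a group name the maternal diet stands before the post-weaning diet, and each group had 2 arrays. BD_HF mice were born to dams fed standard breeder chow and ate high fat food from weaning, in which fat supplied 60% of the calories. LF_HF mice ate that high fat food too, but from embryonic day 10.5 their dams received a defined low fat diet sufficient in vitamin A, in which fat supplied 12% of the calories. VAD_VAD animals had a vitamin A deficient form of that low fat diet through the dam and after weaning. LF_LF animals had the vitamin A sufficient low fat diet in both periods. The labels number the samples of a group and do not say whether each is a separate animal, so a p-value here reflects sample-to-sample spread, which may be technical. Values per array are normalised (relative) signals, in which 1.00 is the 75th percentile of the processed signal of that array, and differences are on the log2 scale. Normalised signals of different probes are not compared with each other.

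LF_HF replicate 1 stood apart from the other arrays. Its share of probes well above background was 82.2%, where the other arrays had 56.5% to 64.2%, and the correlation between replicates was 0.917 in LF_HF, against 0.977 to 0.992 in the other groups. Dim probes were bright on that array: Fbn2, Thbs1 and Mmp9, for instance, had normalised signals of 0.916, 0.875 and 0.846 there, against 0.00771, 0.0103 and 0.0303 on LF_HF replicate 2. The counts of called genes, over the set, its roles and the pathway lists, are therefore given with and without this array. For most roles the LF_HF count without it is not given. Where it is given, it rests on the 1 LF_HF array that then remains. Replicate 1 of every group lay on slide 1 and replicate 2 on slide 2, as given by the barcodes in the headers. For the labelled tissue, all 9 hepatocyte markers were well above background on both arrays of each group.

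Extracellular matrix is the scaffold outside cells. In the liver most of it is made by hepatic stellate cells and portal fibroblasts, and it gathers when the organ scars. Fibronectin, elastin with its fibrillin microfibrils, and the laminin and nidogen network of basement membranes carry the structure, matricellular proteins tune how cells respond to it, and lysyl oxidases tie its fibres together. Matrix metalloproteinases (MMPs) cut it, and the tissue inhibitors of metalloproteinases (TIMPs) block them. Because these are measurements on bulk liver, fewer cells of a type and less RNA per cell cannot be told apart.

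The promoters of 5 genes called lower in LF_HF than in LF_LF livers are printed here, 1 for each role that had such a gene in the RefSeq promoter table, so that the regulatory sequence can be read beside the values. Sequences are from RefSeq (GRCm38.p6), 250 bases ending just before the annotated start of the gene, written 5′ to 3′ on the strand of the gene. Mfap2 lies at chr4:141010431-141010680 (plus strand), Nid1 at chr13:13437352-13437601 (plus), Sparc at chr11:55420081-55420330 (minus), Timp2 at chr11:118355412-118355661 (minus) and Pcolce at chr5:137611405-137611654 (minus). Capitals mark matches to 5 short motifs searched on both strands. The first was GGGCGG, the core of the site bound by the factor SP1. The second was TGANTCA, which the AP-1 factors bind. The third was GGAATG, bound by the TEAD factors that act with YAP. The fourth was AGGTCA, a half-site of nuclear receptors, among them the retinoic acid receptors. The fifth was the core promoter element TATAAA, known as the TATA box.
Mfap2: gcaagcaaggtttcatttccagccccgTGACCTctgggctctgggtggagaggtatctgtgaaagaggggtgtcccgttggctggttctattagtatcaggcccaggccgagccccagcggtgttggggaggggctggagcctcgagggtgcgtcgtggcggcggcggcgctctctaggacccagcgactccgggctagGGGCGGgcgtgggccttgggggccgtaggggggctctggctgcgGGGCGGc
Nid1: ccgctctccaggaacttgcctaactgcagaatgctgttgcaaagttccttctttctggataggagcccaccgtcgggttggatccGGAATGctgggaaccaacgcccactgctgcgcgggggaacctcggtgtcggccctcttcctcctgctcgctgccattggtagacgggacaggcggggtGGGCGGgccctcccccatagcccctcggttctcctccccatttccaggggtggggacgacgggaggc
Sparc: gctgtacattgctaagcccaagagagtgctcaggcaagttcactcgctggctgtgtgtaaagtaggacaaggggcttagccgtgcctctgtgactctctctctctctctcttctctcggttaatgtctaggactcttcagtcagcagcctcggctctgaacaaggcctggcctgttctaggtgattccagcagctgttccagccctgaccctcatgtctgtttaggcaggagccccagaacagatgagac
Timp2: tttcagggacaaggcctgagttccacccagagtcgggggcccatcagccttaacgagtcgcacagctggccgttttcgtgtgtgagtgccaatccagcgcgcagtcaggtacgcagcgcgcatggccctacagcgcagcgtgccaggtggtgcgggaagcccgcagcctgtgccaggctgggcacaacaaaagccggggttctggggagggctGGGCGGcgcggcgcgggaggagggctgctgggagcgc
Pcolce: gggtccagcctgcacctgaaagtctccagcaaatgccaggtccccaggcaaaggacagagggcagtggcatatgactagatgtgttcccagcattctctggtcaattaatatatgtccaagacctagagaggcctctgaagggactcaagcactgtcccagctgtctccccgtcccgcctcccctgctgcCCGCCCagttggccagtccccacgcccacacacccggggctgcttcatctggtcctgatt
The table held a promoter for 29 of the 46 genes, and the first entry was used where a gene had several. GGGCGG was present in 20 of the 29 (69%), against 42.7% of the 17492 promoters of protein-coding genes. TATAAA was present in 5 (17.2% against 12.4%), GGAATG in 3 (10.3% against 11.6%), TGANTCA in 2 (6.9% against 6.22%) and AGGTCA in 2 (6.9% against 12.6%). In the printed windows Mfap2 held GGGCGG at 2 places and AGGTCA at 1, Nid1 held GGGCGG and GGAATG, Timp2 and Pcolce held GGGCGG, and Sparc held none of the 5 motifs. These matches describe letters in a window and are not binding sites.

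The LF_LF livers had the highest group mean for 34 of the 43 tested genes, against 26.2% of all genes tested. In 23 of the 41 genes with a value on every array, both LF_LF arrays lay above all 6 other arrays, against 10.5% of all genes, and in 0 they lay below all 6, against 8.24% of all genes. Without LF_HF replicate 1, both LF_LF arrays lay above the 5 other arrays in 33 of 43 genes, against 16.5% of all genes, a count that includes the 5 genes that entered through LF_LF alone. Among the 33 genes well above background on all 8 arrays, which did not depend on the LF_LF group to enter, both LF_LF arrays were above the other 6 in 20 (60.6%), against 10.8% of the 13717 genes detected in that way, and above the 5 others, LF_HF replicate 1 left out, in 24 (72.7%, against 13.6%). VAD_VAD had the highest mean for Fn1, Ctgf, Mmp14 and Adamts1, BD_HF for Lama4 and Mmp19, and LF_HF for Fbn2, Thbs1 and Mmp9, the last 3 through its replicate 1.

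**Figure D1:**
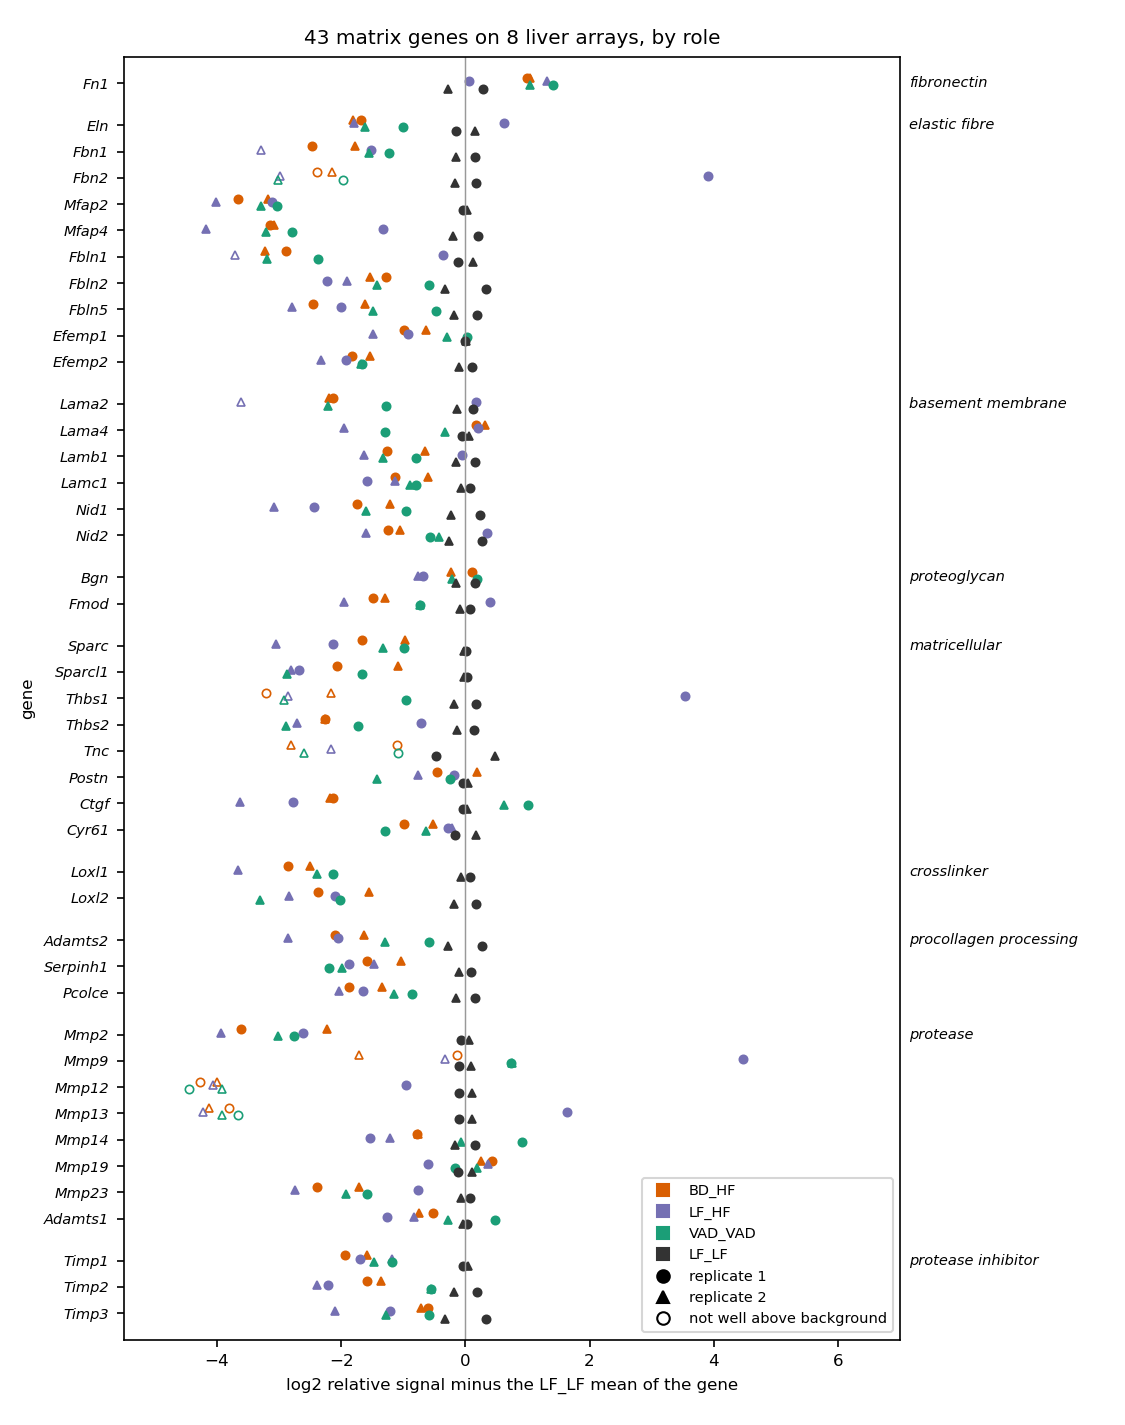
Each row is a gene, grouped by role, and each symbol is an array: the horizontal axis is the log2 normalised signal minus the LF_LF mean of that gene, circles are replicate 1, triangles replicate 2, and open symbols were not well above background. Most symbols of the 3 other groups lie left of the LF_LF symbols at 0, Fn1 lies to the right, and LF_HF replicate 1 lies far to the right for Fbn2, Thbs1 and Mmp9.

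The BD_HF, LF_HF and VAD_VAD livers were each compared with the same 2 LF_LF arrays, so these 3 sets of differences are not independent. LF_HF against LF_LF addresses high fat feeding with the maternal diet held the same, VAD_VAD against LF_LF addresses vitamin A deficiency, and BD_HF against LF_LF, in which the maternal diet differs too, was added because LF_HF replicate 1 stood apart. A gene was called when the Benjamini-Hochberg adjusted p of limma, taken over all 17267 genes, was under 0.05.

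In BD_HF against LF_LF, the microfibril gene Mfap2, the matricellular gene Ctgf and the crosslinker Loxl1 were called lower, 4.46-fold to 10.68-fold. That is 3 of the 43 genes lower and 0 higher, where 1.16% of all genes were called lower and 0.463% higher. The median difference over the 43 genes was -1.61, against 0.08 over all genes, and BD_HF arrays lay below both LF_LF arrays without overlap in 38 of 43 genes, against 27.7% of all genes. They lay above both without overlap in 3 (Fn1, Lama4 and Mmp19), against 31.8% of all genes. Of the 33 genes above background on every array, 2 were called lower (6.06%, against 0.94% of the 13717 genes), with a median of -1.40 against 0.11. The count without overlap over the 43 includes genes that entered through LF_LF alone. Among the 33, 28 were lower in BD_HF without overlap (84.8%, against 24.3% of the 13717 genes). Most of the set therefore had lower signals in BD_HF, though few single genes passed. Within slide 1 the median was -1.90 and within slide 2 it was -1.36. LF_HF replicate 1 is in neither group, and enters through the estimate of the spread and the choice of probes and genes tested. Without it, 25 of the 43 were called lower, against 6.65% of all genes. Of these, 18 were above background on all 8 arrays and 3 (Fbn2, Mmp12 and Mmp13) had entered through LF_LF alone. With another array left out the count was 0 without either BD_HF array, either LF_LF array or VAD_VAD replicate 2, 1 without VAD_VAD replicate 1, and 20 without LF_HF replicate 2.

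LF_HF against LF_LF gave the most calls, in 7 of the 9 roles: Mfap2, Fbln2 and Efemp2 of the elastic fibre, Nid1 of the basement membrane, the matricellular Sparc, Sparcl1 and Ctgf, the crosslinker Loxl1, the procollagen processing factors Adamts2 and Pcolce, the protease Mmp2 and the inhibitor Timp2. Loxl1 had a value on 1 LF_HF array only, so its call takes the spread of that group from the others. All were lower, so 12 of the 43 genes were called lower and 0 higher, where 1.99% of all genes were called lower and 0.597% higher. The median over the 43 genes was -1.72, against -0.06 over all genes, and 29 of 41 genes were lower without overlap, against 22.7% of all genes. None of the 41 was higher without overlap, against 19.5% of all genes. Of the 33 genes above background on every array, 11 were called lower (33.3%, against 1.89% of the 13717 genes), with a median of -1.67 against -0.09. Among these 33, 26 were lower in LF_HF without overlap (78.8%, against 24.3% of the 13717 genes). The lower signals were thus found on both slides and among the genes above background throughout. The median was -1.29 within slide 1 and -2.22 within slide 2, and with the replicate number as a block, 8 of the 12 were called, without Pcolce, Sparcl1, Fbln2 and Mmp2 (limma adjusted p = 0.0513 to 0.054). Without LF_HF replicate 1 the remaining LF_HF array is assumed to vary like the other groups; 31 of the 43 were then called lower, 24 of them above background on all 8 arrays and the same 3 entered through LF_LF alone, against 8.93% of all genes, and the median was -2.33. The count was 26 without LF_HF replicate 2 (21 lower and 5 higher), where 11865 of 23037 genes were called, 6 without VAD_VAD replicate 1, 2 without VAD_VAD replicate 2, 2 without BD_HF replicate 1, 1 without BD_HF replicate 2 and 0 without either LF_LF array. Without either LF_LF array, 0 of all genes were called, and 19 of the 43 had an unadjusted limma p under 0.05 without replicate 1 (8.07% of all genes) and 21 without replicate 2 (7.62% of all genes).

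In VAD_VAD against LF_LF, Mfap2 alone was called, 8.98-fold lower. That is 1 of the 43 genes lower and 0 higher, where 0.521% of all genes were called lower and 0.0927% higher. The median was -1.16, against 0.07 over all genes, and 35 of 43 genes were lower without overlap, against 26.8% of all genes. Fn1, Ctgf and Mmp9, 3 of the 43, were higher without overlap, against 30.7% of all genes. Of the 33 genes above background on every array, 1 was called lower (3.03%, against 0.394% of the 13717 genes), with a median of -0.97 against 0.11. Among these 33, 26 were lower in VAD_VAD without overlap (78.8%, against 23.5% of the 13717 genes). Most of the set was again lower in VAD_VAD than in LF_LF, with smaller median differences than in the high fat groups, a contrast between groups that was not tested. The median was -1.01 within slide 1 and -1.36 within slide 2. Without LF_HF replicate 1, 15 of the 43 were called lower, 9 of them above background on all 8 arrays and again 3 entered through LF_LF alone, against 4.03% of all genes. The count was 10 without LF_HF replicate 2. It was 0 without any one of the other 6 arrays. An unadjusted limma p under 0.05 was found for 23 of the 43 genes in the fit to all arrays, 22 of them lower and Fn1 higher, against 10.2% of all genes in either direction.

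**Figure D2:**
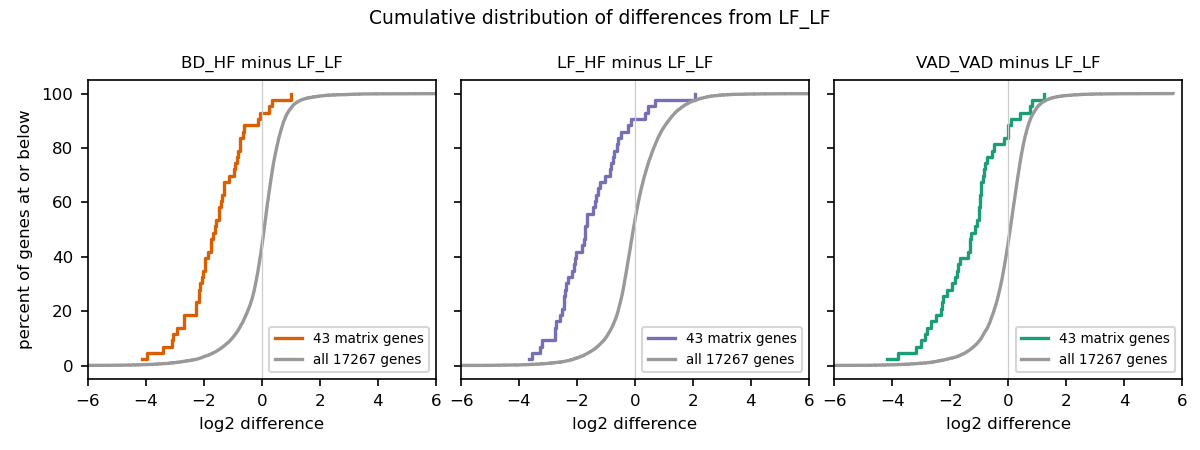
Cumulative percent of genes (vertical axis) at or below a log2 difference from LF_LF (horizontal axis) in the 3 comparisons, in colour for the 43 matrix genes and in grey for all 17267 genes. The median of the matrix genes is -1.61 in BD_HF, -1.72 in LF_HF and -1.16 in VAD_VAD, while the grey curves cross near 0.

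Fibronectin had a higher mean in the 3 other groups than in LF_LF, unlike most of the set. Fn1, which encodes the adhesive glycoprotein of plasma and matrix that hepatocytes make in large amounts, had normalised signals of 20.5 and 21.3 on BD_HF arrays, 10.8 and 25.6 on LF_HF arrays, 27.4 and 21.3 on VAD_VAD arrays, and 12.6 and 8.51 on LF_LF arrays. On this probe, the brightest of the gene, both BD_HF and both VAD_VAD arrays were above both LF_LF arrays, and the LF_HF arrays overlapped them. The difference from LF_LF was 1.02 (SE 0.46, adjusted p = 0.433) in BD_HF, 0.69 (SE 0.46, adjusted p = 0.506) in LF_HF and 1.22 (SE 0.46, adjusted p = 0.413) in VAD_VAD, and none passed the test. The dimmer Fn1 probes, also above background on all 8 arrays, differed by 1.31 and 1.48 in BD_HF, 1.25 and 1.54 in LF_HF, and 1.55 and 1.32 in VAD_VAD. On each of them both LF_HF arrays were above both LF_LF arrays.

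Of the 10 tested elastic fibre and microfibril genes, 3 were called lower in LF_HF than in LF_LF and 1, Mfap2, in each of the other 2 comparisons, where 1.99% of all genes were called lower in LF_HF, 1.16% in BD_HF and 0.521% in VAD_VAD. With LF_HF replicate 1 left out, 8 were called lower in BD_HF, 10 in LF_HF and 5 in VAD_VAD, against 6.65%, 8.93% and 4.03% of all genes, Fbn2 among them in each. Their median differences from LF_LF were -2.07 in BD_HF, -2.09 in LF_HF and -1.53 in VAD_VAD. Mfap2, a small glycoprotein of fibrillin microfibrils, had normalised signals of 0.101 and 0.141 on BD_HF arrays, 0.148 and 0.079 on LF_HF arrays, 0.155 and 0.130 on VAD_VAD arrays, and 1.25 and 1.31 on LF_LF arrays. All 6 arrays of the other diets lay far below both LF_LF arrays. It fell by 3.42 in BD_HF (SE 0.39, adjusted p = 0.0137, 10.68-fold), by 3.56 in LF_HF (SE 0.39, adjusted p = 0.00967, 11.8-fold) and by 3.17 in VAD_VAD (SE 0.39, adjusted p = 0.025, 8.98-fold). A second, dimmer Mfap2 probe differed by -0.99 in BD_HF, 0.97 in LF_HF and -0.87 in VAD_VAD, where LF_HF replicate 1 read 0.721 and LF_HF replicate 2 read 0.0583.

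Efemp2, also called fibulin-4, which is needed to assemble elastic fibres, had signals of 1.85 and 2.25 on BD_HF arrays, 1.73 and 1.30 on LF_HF arrays, 2.07 and 2.04 on VAD_VAD arrays, and 7.01 and 6.08 on LF_LF arrays. The 6 arrays of the other diets again sat together below LF_LF. It fell by 2.12 in LF_HF (SE 0.32, adjusted p = 0.0228), and the differences of -1.68 in BD_HF (SE 0.32, adjusted p = 0.0547) and -1.67 in VAD_VAD (SE 0.32, adjusted p = 0.0825) did not pass. Fbln2, a fibulin that binds fibronectin and basement membrane proteins, had signals of 0.502 and 0.419 on BD_HF arrays, 0.259 and 0.324 on LF_HF arrays, 0.809 and 0.450 on VAD_VAD arrays, and 1.52 and 0.966 on LF_LF arrays. LF_HF was lowest, no group overlapped LF_LF, and only the LF_HF difference of -2.06 (SE 0.41, adjusted p = 0.0494) passed.

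Fbln5, which tethers elastin to cells, had signals of 0.584 and 1.05 on BD_HF arrays, 0.797 and 0.464 on LF_HF arrays, 2.32 and 1.14 on VAD_VAD arrays, and 3.65 and 2.80 on LF_LF arrays. All 6 arrays were below LF_LF, and VAD_VAD replicate 1 came nearest to it. The difference was -2.40 in LF_HF (SE 0.50, adjusted p = 0.0561). Mfap4, a microfibril-associated protein, had 0.204 and 0.214 on BD_HF arrays, 0.722 and 0.0998 on LF_HF arrays, 0.260 and 0.195 on VAD_VAD arrays, and 2.08 and 1.57 on LF_LF arrays. Fbln1 had 0.0557 and 0.0443 on BD_HF arrays, 0.320 and 0.0316 on LF_HF arrays, 0.0796 and 0.0453 on VAD_VAD arrays, and 0.378 and 0.450 on LF_LF arrays. In both genes LF_HF replicate 1 was several times brighter than replicate 2, and no array of another diet reached LF_LF. Fbn1, the main microfibril protein, differed by -2.12 in BD_HF, -2.40 in LF_HF and -1.39 in VAD_VAD without overlap, none called. Eln, elastin itself, was 0.0781 and 0.0708 on BD_HF arrays, 0.383 and 0.0715 on LF_HF arrays, 0.124 and 0.0809 on VAD_VAD arrays, and 0.224 and 0.276 on LF_LF arrays, so that LF_HF replicate 1 alone was above LF_LF. Efemp1 differed least from LF_LF in VAD_VAD, at -0.13 with overlapping arrays.

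Among the 6 basement membrane genes, Nid1 alone was called, lower in LF_HF, where 1.99% of all genes were. With LF_HF replicate 1 left out, 3 were called lower in BD_HF and 1 in VAD_VAD, against 6.65% and 4.03% of all genes. Nid1 encodes nidogen-1, which links the laminin and type IV collagen networks. Its signals were 1.40 and 2.01 on BD_HF arrays, 0.865 and 0.553 on LF_HF arrays, 2.41 and 1.54 on VAD_VAD arrays, and 5.49 and 3.96 on LF_LF arrays. LF_HF was lowest and LF_LF highest, with BD_HF and VAD_VAD between them and overlapping each other. Nid1 fell by 2.75 in LF_HF (SE 0.41, adjusted p = 0.0229), and differed by -1.48 in BD_HF (SE 0.41, adjusted p = 0.169) and -1.27 in VAD_VAD (SE 0.41, adjusted p = 0.315). Lamc1, the gamma-1 chain shared by most laminins, had 1.18 and 1.71 on BD_HF arrays, 0.858 and 1.17 on LF_HF arrays, 1.48 and 1.38 on VAD_VAD arrays, and 2.70 and 2.45 on LF_LF arrays. No array of another diet reached LF_LF, and the LF_HF difference of -1.36 (SE 0.34) had an adjusted p of 0.0967. Lama2, Lamb1 and Nid2 were below LF_LF without overlap in BD_HF and VAD_VAD, and overlapped it in LF_HF through replicate 1. Lama4 stood apart in this role: BD_HF, at 0.539 and 0.598, was slightly above LF_LF, at 0.46 and 0.5 (difference 0.24, SE 0.68, adjusted p = 0.95), whereas VAD_VAD, at 0.195 and 0.382, was below it.

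The 2 tested proteoglycans gave no call in the fit to all arrays. With LF_HF replicate 1 left out, 1 was called lower in BD_HF and 0 in VAD_VAD, against 6.65% and 4.03% of all genes. Biglycan (Bgn), a small leucine-rich proteoglycan, was 2.01 and 1.59 on BD_HF arrays, 1.16 and 1.1 on LF_HF arrays, 2.11 and 1.6 on VAD_VAD arrays, and 2.06 and 1.68 on LF_LF arrays. Only LF_HF lay outside the range of the others, at -0.72 from LF_LF (SE 0.32, adjusted p = 0.324). Fibromodulin (Fmod), which shapes collagen fibrils, differed by -1.39 in BD_HF, -0.78 in LF_HF and -0.73 in VAD_VAD, with overlap in LF_HF only.

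Of the 8 matricellular genes, Sparc, Sparcl1 and Ctgf were called lower in LF_HF, and Ctgf also in BD_HF. Over all genes, 1.99% were called lower in LF_HF and 1.16% in BD_HF. The counts were 3 in BD_HF and 1 in VAD_VAD when LF_HF replicate 1 was left out, against 6.65% and 4.03% of all genes. Sparc encodes osteonectin, a collagen-binding calcium protein. It had signals of 6.19 and 10.05 on BD_HF arrays, 4.47 and 2.37 on LF_HF arrays, 9.90 and 7.82 on VAD_VAD arrays, and 19.8 and 19.4 on LF_LF arrays. The LF_LF arrays were nearly equal and above every other array, and LF_HF was lowest. Sparc fell by 2.59 in LF_HF (SE 0.42, adjusted p = 0.0296) and differed by -1.31 in BD_HF (SE 0.42, adjusted p = 0.23) and -1.16 in VAD_VAD (SE 0.42, adjusted p = 0.389). Its relative Sparcl1, or hevin, had 2.08 and 4.08 on BD_HF arrays, 1.37 and 1.25 on LF_HF arrays, 2.76 and 1.19 on VAD_VAD arrays, and 8.87 and 8.53 on LF_LF arrays. Again every array of another diet was below LF_LF. Sparcl1 fell by 2.73 in LF_HF (SE 0.49, adjusted p = 0.0367), and the differences of -1.58 in BD_HF and -2.26 in VAD_VAD did not pass (adjusted p = 0.217 and 0.132).

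Ctgf (CCN2), a growth-factor-binding protein that rises in fibrosis and is a target of the YAP and TEAD regulators, did not follow the others in the vitamin A deficient livers. Its signals were 1.57 and 1.52 on BD_HF arrays, 1.01 and 0.559 on LF_HF arrays, 13.9 and 10.6 on VAD_VAD arrays, and 6.75 and 7.04 on LF_LF arrays. The 4 groups did not overlap: LF_HF was lowest, then BD_HF, then LF_LF, and VAD_VAD was highest. Ctgf fell by 2.16 in BD_HF (SE 0.37, adjusted p = 0.0422, 4.46-fold) and by 3.20 in LF_HF (SE 0.37, adjusted p = 0.0112, 9.20-fold). In VAD_VAD the difference was 0.81 (SE 0.37, adjusted p = 0.528). Its family member Cyr61 (CCN1) did not show this pattern, with 0.482 and 0.669 on BD_HF arrays, 0.795 and 0.831 on LF_HF arrays, 0.393 and 0.620 on VAD_VAD arrays, and 0.850 and 1.08 on LF_LF arrays, and no call. Of 10 YAP and TEAD target genes listed, which include both, Ctgf alone was called, lower in BD_HF and in LF_HF. The shares of all genes called lower there were 1.16% and 1.99%. With LF_HF replicate 1 left out, 5 were called lower in BD_HF and 2 in VAD_VAD, against 6.65% and 4.03% of all genes.

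Thbs2, a thrombospondin, lay below LF_LF without overlap in all 3 groups (differences -2.26 in BD_HF, -1.72 in LF_HF and -2.31 in VAD_VAD, none called). Postn, encoding periostin, overlapped LF_LF in BD_HF and differed by -0.47 in LF_HF and -0.83 in VAD_VAD. Tenascin C (Tnc) was above background only in LF_LF, at 0.0467 and 0.0902, and was at least 2.02-fold lower in BD_HF, 1.84-fold in LF_HF and 2.11-fold in VAD_VAD. Such a bound sets an array below background to its lowest signal that was well above background, or to the probe's own signal where that was higher. Tnc had no usable spot on LF_HF replicate 1.

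Both tested crosslinking enzymes lay below LF_LF without overlap, and Loxl1 was called in BD_HF and LF_HF. Over all genes, 1.16% were called lower in BD_HF and 1.99% in LF_HF. When LF_HF replicate 1 was left out, 1 was called lower in BD_HF and 2 in VAD_VAD, against 6.65% and 4.03% of all genes. Loxl1, the lysyl oxidase needed for elastic fibre upkeep, had signals of 0.276 and 0.355 on BD_HF arrays, 0.158 on the 1 LF_HF array with a usable spot, 0.455 and 0.380 on VAD_VAD arrays, and 2.11 and 1.90 on LF_LF arrays. No other array came near the LF_LF pair. Loxl1 fell by 2.67 in BD_HF (SE 0.33, adjusted p = 0.0237, 6.38-fold) and by 3.67 in LF_HF (SE 0.41, adjusted p = 0.0133, 12.7-fold), where the 1 LF_HF array is assumed to vary like the other groups, and in VAD_VAD the difference of -2.27 (SE 0.33) had an adjusted p of 0.0514. Loxl2, which acts on type IV collagen, had 0.627 and 1.1 on BD_HF arrays, 0.760 and 0.454 on LF_HF arrays, 0.804 and 0.328 on VAD_VAD arrays, and 3.66 and 2.87 on LF_LF arrays. The 6 other arrays were all below LF_LF and overlapped one another. Loxl2 differed by -1.96 in BD_HF, -2.46 in LF_HF and -2.66 in VAD_VAD (SE 0.53 each), with adjusted p-values of 0.16, 0.0626 and 0.0999.

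The 3 procollagen processing factors were below LF_LF without overlap in every comparison, and Adamts2 and Pcolce were called in LF_HF. Over all genes, 1.99% were called lower in LF_HF. All 3 were called lower in BD_HF and 1 in VAD_VAD when LF_HF replicate 1 was left out, against 6.65% and 4.03% of all genes. Adamts2 removes the amino propeptide of fibrillar procollagens. Its signals were 3.33 and 4.61 on BD_HF arrays, 3.45 and 1.97 on LF_HF arrays, 9.54 and 5.83 on VAD_VAD arrays, and 17.2 and 11.8 on LF_LF arrays. The high fat groups were lowest and VAD_VAD lay between them and LF_LF. Adamts2 fell by 2.45 in LF_HF (SE 0.44, adjusted p = 0.0361) and differed by -1.86 in BD_HF and -0.93 in VAD_VAD (adjusted p = 0.111 and 0.543). Of its other 3 probes, all dimmer, 1 was lower in LF_HF (-3.46) and 2 were higher (0.63 and 0.84).

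Pcolce enhances removal of the carboxyl propeptide. It had 4.27 and 6.11 on BD_HF arrays, 4.96 and 3.78 on LF_HF arrays, 8.58 and 7.01 on VAD_VAD arrays, and 17.3 and 14.0 on LF_LF arrays, in the same order of groups. Pcolce fell by 1.84 in LF_HF (SE 0.35, adjusted p = 0.0415), and the differences of -1.61 in BD_HF and -1.003 in VAD_VAD did not pass (adjusted p = 0.0865 and 0.358). Serpinh1, the collagen chaperone HSP47, had 1.43 and 2.09 on BD_HF arrays, 1.18 and 1.54 on LF_HF arrays, 0.939 and 1.08 on VAD_VAD arrays, and 4.59 and 4.02 on LF_LF arrays. Here VAD_VAD was the lowest group, at -2.09 from LF_LF (SE 0.34, adjusted p = 0.052), against -1.67 in LF_HF (adjusted p = 0.0529) and -1.31 in BD_HF (adjusted p = 0.145).

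**Figure D3:**
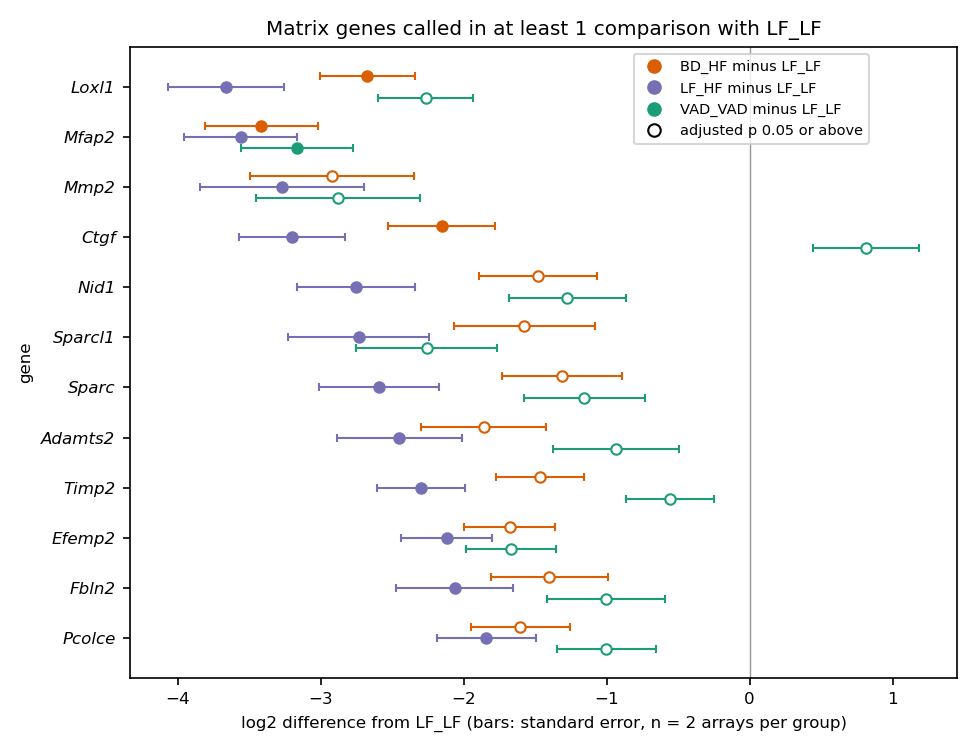
Log2 difference from LF_LF (horizontal axis, bars are standard errors) of the 12 genes called in at least 1 of the 3 comparisons, with filled symbols for adjusted p under 0.05. Every point is below 0 except Ctgf in VAD_VAD, at 0.81, and Mfap2 is filled in all 3 groups.

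Among the 8 proteases, Mmp2 was called lower in LF_HF, where 1.99% of all genes were. With LF_HF replicate 1 left out, 4 were called lower in BD_HF and 4 in VAD_VAD, Mmp12 and Mmp13 among them. The shares of all genes were then 6.65% and 4.03%. Mmp2 encodes gelatinase A, a product of stellate cells and fibroblasts. Its signals were 0.0783 and 0.204 on BD_HF arrays, 0.156 and 0.0628 on LF_HF arrays, 0.142 and 0.119 on VAD_VAD arrays, and 0.916 and 0.999 on LF_LF arrays. All 6 arrays of the other diets were far below the LF_LF pair. Mmp2 fell by 3.27 in LF_HF (SE 0.57, adjusted p = 0.0344, 9.67-fold), and differed by -2.92 in BD_HF (SE 0.57, adjusted p = 0.0624) and -2.88 in VAD_VAD (SE 0.57, adjusted p = 0.0974).

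Mmp12, the macrophage elastase, and Mmp13, the main interstitial collagenase of mice, were well above background on both LF_LF arrays and, elsewhere, on LF_HF replicate 1 alone. Mmp12 read 0.149 and 0.173 on LF_LF arrays and 0.0826 on LF_HF replicate 1, and was at least 5.005-fold lower in BD_HF (adjusted p = 0.0778) and at least 5.40-fold lower in VAD_VAD (adjusted p = 0.108). Mmp13 read 0.152 and 0.175 on LF_LF arrays and 0.509 on LF_HF replicate 1, and was at least 5.08-fold lower in BD_HF (adjusted p = 0.349) and at least 5.48-fold lower in VAD_VAD (adjusted p = 0.463). Without LF_HF replicate 1 both genes were among those called lower in BD_HF and in VAD_VAD. Their entry through LF_LF alone favours a higher signal there. Mmp23 was lower than LF_LF without overlap in all 3 groups (differences -2.05 in BD_HF, -1.75 in LF_HF and -1.76 in VAD_VAD), and none passed.

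Mmp14, the membrane-bound activator of pro-MMP2, and Adamts1, a protease of proteoglycans, did not share the pattern in VAD_VAD. Mmp14 had 5.08 and 5.12 on BD_HF arrays, 3.02 and 3.74 on LF_HF arrays, 16.4 and 8.28 on VAD_VAD arrays, and 9.74 and 7.79 on LF_LF arrays. The high fat groups were below LF_LF and VAD_VAD overlapped it (difference 0.42, SE 0.40, adjusted p = 0.775). Adamts1 had 1.98 and 1.70 on BD_HF arrays, 1.19 and 1.6 on LF_HF arrays, 3.93 and 2.33 on VAD_VAD arrays, and 2.90 and 2.78 on LF_LF arrays. Its high fat groups were below LF_LF too, with VAD_VAD on both sides of LF_LF (0.09, SE 0.37, adjusted p = 0.948). The sign in VAD_VAD turned for Adamts1 under quantile scaling, under a 75th percentile over probes detected on all arrays and without VAD_VAD replicate 1, and for Mmp14 without VAD_VAD replicate 1 (-0.07). Mmp19 overlapped LF_LF in LF_HF and VAD_VAD and was slightly above it in BD_HF (0.34, SE 0.40, adjusted p = 0.845). Mmp9, the gelatinase B of neutrophils and macrophages, was not above background in BD_HF and read 0.0634 and 0.0645 on VAD_VAD arrays, against 0.0357 and 0.0409 on LF_LF arrays (0.74, SE 1.34, adjusted p = 0.877). Neutrophil markers, 6 of 9 tested, summed to 20.2 and 26.7 on VAD_VAD arrays and 5.01 and 4.85 on LF_LF arrays, and their part in the Mmp9 values was not tested.

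Of the 3 inhibitors, Timp2 was called, lower in LF_HF, where 1.99% of all genes were. With LF_HF replicate 1 left out, 2 were called lower in BD_HF and 1 in VAD_VAD, against 6.65% and 4.03% of all genes. Timp2, which blocks MMPs and also helps MMP14 activate pro-MMP2, had signals of 8.11 and 9.55 on BD_HF arrays, 5.23 and 4.67 on LF_HF arrays, 16.6 and 16.5 on VAD_VAD arrays, and 27.7 and 21.4 on LF_LF arrays. The 4 groups did not overlap, with LF_HF lowest, then BD_HF, VAD_VAD and LF_LF. Timp2 fell by 2.30 in LF_HF (SE 0.31, adjusted p = 0.0171), and differed by -1.47 in BD_HF (SE 0.31, adjusted p = 0.0778) and -0.56 in VAD_VAD (SE 0.31, adjusted p = 0.625). Timp1, the inducible inhibitor associated with fibrosis, had 0.828 and 1.05 on BD_HF arrays, 0.978 and 1.39 on LF_HF arrays, 1.39 and 1.14 on VAD_VAD arrays, and 3.08 and 3.25 on LF_LF arrays. All 3 groups were at a similar level below LF_LF, at -1.76 in BD_HF (SE 0.33, adjusted p = 0.0553), -1.44 in LF_HF (SE 0.33, adjusted p = 0.0788) and -1.33 in VAD_VAD (SE 0.33, adjusted p = 0.193). Timp3, the matrix-bound inhibitor, had 5.94 and 5.48 on BD_HF arrays, 3.89 and 2.11 on LF_HF arrays, 5.99 and 3.71 on VAD_VAD arrays, and 11.4 and 7.17 on LF_LF arrays. It lay below LF_LF without overlap in every group and was called in none (differences -0.66 in BD_HF, -1.65 in LF_HF and -0.94 in VAD_VAD).

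BD_HF against LF_HF asks what the maternal diet changes when both groups eat the high fat diet. It gave 0 called genes among the 43, and 1 gene, 0.00579% of all tested, in either direction. The median over the 43 genes was 0.34, against 0.17 over all genes, and it was -0.27 within slide 1 and 0.79 within slide 2. BD_HF arrays lay above both LF_HF arrays in 12 of 41 genes, against 17.7% of all genes, and below them in 1, against 9.54%. An unadjusted limma p under 0.05 was found for 6 of the 43, against 5.4% of all genes, all 6 higher in BD_HF: Nid1, Sparc, Sparcl1, Ctgf, Loxl1 and Timp2, with differences of 1.27, 1.28, 1.16, 1.05, 0.99 and 0.83 and an adjusted p of 0.783 for each. Without LF_HF replicate 1 the count of calls was again 0, with 10 unadjusted (8.64% of all genes), and without LF_HF replicate 2 it was 16, of which 15 were lower in BD_HF, where 11337 of 23037 genes were called.

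Genes next to this set in the pathway were described through gene lists, to be read against the 1.16% of all genes called lower in BD_HF, 1.99% in LF_HF and 0.521% in VAD_VAD. The shares were 6.65%, 8.93% and 4.03% when LF_HF replicate 1 was left out. Of 15 collagen chains listed, 5 were called lower in BD_HF, 7 in LF_HF and 3 in VAD_VAD, and 0 higher. With that array left out, 9 were called lower in BD_HF, 11 in LF_HF and 9 in VAD_VAD. Col1a1, a chain of type I collagen, read 0.411 and 0.681 on BD_HF arrays, 0.354 and 0.316 on LF_HF arrays, 0.781 and 0.479 on VAD_VAD arrays, and 9.88 and 7.70 on LF_LF arrays, and fell by 4.04, 4.70 and 3.83 in these 3 groups (adjusted p = 0.00813, 0.00445 and 0.016). Of 25 tested other matrix proteins, 5 were called lower in BD_HF, 7 in LF_HF and 0 in VAD_VAD, and 12, 16 and 5 with that array left out. Lumican (Lum), a proteoglycan of collagen fibrils, read 1.30 and 2.60 on BD_HF arrays, 0.982 and 1.17 on LF_HF arrays, 4.27 and 4.06 on VAD_VAD arrays, and 11.8 and 12.5 on LF_LF arrays. Of 24 tested other proteases and inhibitors, 1 was called lower in LF_HF (Ctss, the lysosomal cathepsin S) and 1 higher (Serpine2, an inhibitor of serine proteases), and 0 in BD_HF or VAD_VAD. With that array left out, 11 were called lower in BD_HF, 12 lower and 1 higher in LF_HF, and 4 lower and 1 higher in VAD_VAD. Serpine2 read 0.842 and 1.06 on LF_HF arrays, against 0.155 and 0.2 on LF_LF arrays, and rose by 2.42 (SE 0.38, adjusted p = 0.027).

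Marker sums of several cell types were highest in LF_LF, as most of these genes were. Portal fibroblast markers, 6 of 7 tested and all above background on every array, summed to 3.05 and 2.94 on BD_HF arrays, 4.76 and 2.46 on LF_HF arrays, 3.92 and 3.81 on VAD_VAD arrays, and 13.4 and 13.9 on LF_LF arrays. Gli1 did not enter the test, and Dpt is in both this list and the other matrix proteins. Most of the LF_LF sum came from Cd34 (4.95 and 4.87), Entpd2 (4.90 and 5.33) and Dpt (2.35 and 2.73). Of the 6 markers, 1 had a higher mean than LF_LF in BD_HF, 2 in LF_HF and 1 in VAD_VAD. Cell cycle markers, 8 of 8 tested, summed to 2.01 and 2.27 on BD_HF arrays, 2.29 and 2.04 on LF_HF arrays, 2.53 and 2.98 on VAD_VAD arrays, and 28.9 and 21.1 on LF_LF arrays. Cholangiocyte markers, 6 of 7 tested, summed to 9.23 and 6.19 on BD_HF arrays, 7.31 and 5.84 on LF_HF arrays, 6.98 and 6.53 on VAD_VAD arrays, and 15.7 and 22.6 on LF_LF arrays. Macrophage markers, 11 of 11 tested, summed to 67.4 and 71.8 on BD_HF arrays, 57.1 and 45.7 on LF_HF arrays, 55.5 and 85.3 on VAD_VAD arrays, and 89.7 and 86.3 on LF_LF arrays. All 4 sums were highest on both LF_LF arrays, though the macrophage sum on VAD_VAD replicate 2 (85.3) came near those of LF_LF. Of the 11 macrophage markers, 3 had a higher mean than LF_LF in each comparison, Clec4f among them. Among the macrophage markers Trem2, Itgax and Gpnmb were called lower in BD_HF and Timd4 higher, Trem2, Itgax and Cd68 were called lower in LF_HF, and Trem2 in VAD_VAD.

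The summed signal of 11 hepatic stellate cell markers overlapped between groups: 84.2 and 115 on BD_HF arrays, 65.6 and 86.7 on LF_HF arrays, 107.02 and 64.6 on VAD_VAD arrays, and 83.1 and 68.8 on LF_LF arrays. Most of that sum came from Ecm1, at 65.1 and 90.9 on BD_HF arrays, 49.5 and 67.7 on LF_HF arrays, 83.0 and 47.2 on VAD_VAD arrays, and 45.2 and 38.2 on LF_LF arrays, which was not called. Of the 11, 7 had a lower mean than LF_LF in each comparison, and the median difference was -0.05 in BD_HF, -0.80 in LF_HF and -0.26 in VAD_VAD. Pdgfrb, the platelet-derived growth factor receptor of mesenchymal cells, was called lower in all 3 groups. In VAD_VAD the retinol-esterifying enzyme Lrat (difference -5.83, SE 0.66, adjusted p = 0.0191, above background on 1 of the 2 VAD_VAD arrays) and the nerve growth factor receptor Ngfr (-2.68, SE 0.36, adjusted p = 0.0331) were called lower as well. Hepatocyte markers, 9 of 9 tested, summed to 2763 and 3040 on BD_HF arrays, 1502 and 3318 on LF_HF arrays, 3553 and 2467 on VAD_VAD arrays, and 1931 and 1999 on LF_LF arrays. Sinusoidal endothelial markers, 9 of 9 tested, summed to 53.4 and 64.5 on BD_HF arrays, 28.2 and 16.6 on LF_HF arrays, 51.2 and 65.2 on VAD_VAD arrays, and 38.0 and 39.1 on LF_LF arrays, so they were lowest in LF_HF. Some genes of the set, Nid1, Sparc and Timp2 among them, also had their lowest mean in LF_HF, and others had it in another group. How often this holds over all genes was not computed. Unlike most of the set, the endothelial sums were higher in BD_HF and VAD_VAD than in LF_LF. Of the listed genes, Gfap in the stellate list, Gpnmb in the macrophage list, and Ccnb1 and Cdk1 in the cell cycle list were not above background on either BD_HF array. The part of these cell types in the matrix gene values was not tested.

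**Figure D4:**
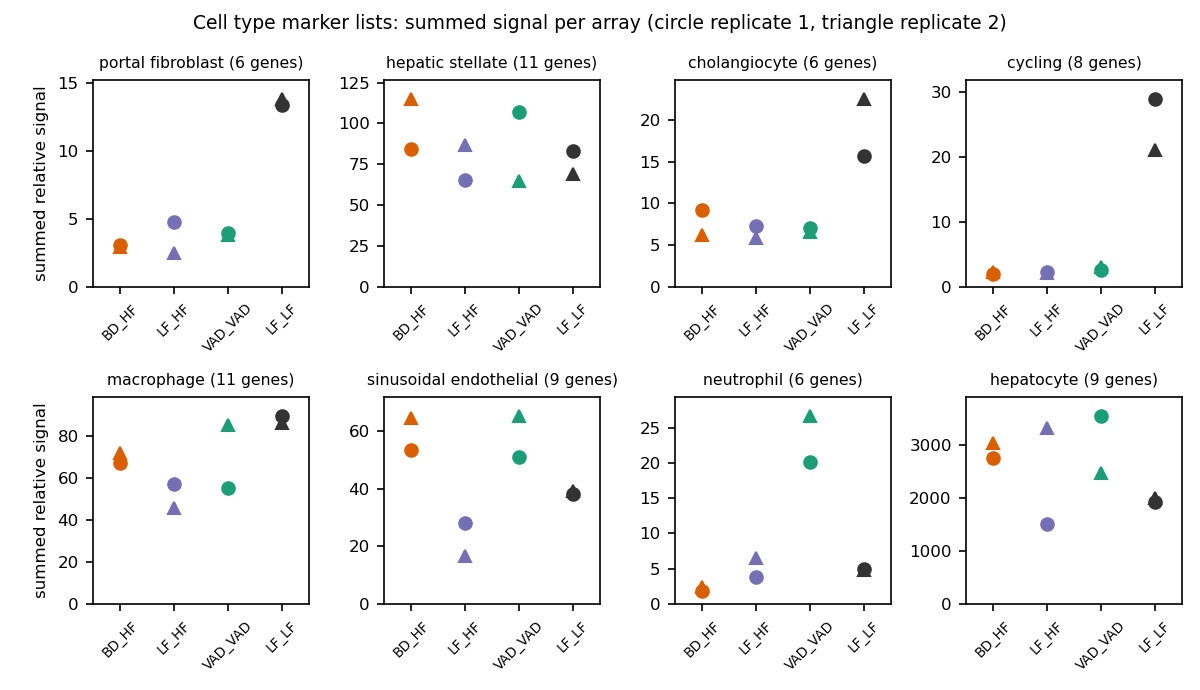
Summed normalised signal (vertical axis, from 0) of 8 cell type marker lists on each array, by diet group, with circles for replicate 1 and triangles for replicate 2. The portal fibroblast, cholangiocyte, cell cycle and macrophage sums are highest on both LF_LF arrays, and the stellate sums overlap between groups.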

How the data were processed

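Liver RNA was labelled with Cy3 and hybridised to 8 single-colour Agilent arrays, 2 for each of 4 diet groups, per the labels' protocols. Images were read with Agilent Feature Extraction 10.7.3.1 and probe positions refer to mm9, per the file headers. The deposited processed signal is an intensity on a linear scale after background handling and detrending, per the file headers, with no scaling between arrays recorded. The deposited series table holds the same intensity, within 0.497%, linear and not centred, with column medians of 23.9 and 17.7 for BD_HF, 178 and 15.7 for LF_HF, 23.7 and 17.9 for VAD_VAD, and 27.9 and 26.4 for LF_LF. The submitters' processing notes name limma, with its role and version not given in the sources used here.

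Here the deposited intensity was divided by its array's 75th percentile and taken to log2 (percentiles of 229 and 220 for BD_HF, 484 and 190 for LF_HF, 239 and 216 for VAD_VAD, and 276 and 281 for LF_LF). Control and outlier spots were left out, spots of a probe were averaged, and 26224 of 41174 probes were kept, those that 1 or more groups had well above background on each of their arrays. The probe with the highest mean stood for each of 17267 genes. Names are those in the files; the accessions of 67 of the 79 probes matched the same symbol in a RefSeq table (GRCm38.p6), and 12 had no match. The model was fitted to all 8 arrays with lmFit and eBayes of limma 3.58.1 in R 4.3.3, with 4 residual and 3.43 prior degrees of freedom and Benjamini-Hochberg adjustment over all genes. Where a gene lacked a value on an array, the group mean used the other array. The fit was tested on simulated data. With 2 arrays per group, the number of arrays limits the precision.

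Full values are given for genes called in any comparison and for genes of each role whose groups did not overlap, the rest by range or count; genes outside the set come from fixed lists, those called and at most 4 per list by smallest p. Ecm1 was added to these after its values were seen. The 46 genes, the lists and the comparisons were chosen with earlier results of these data known. The replicate number equals the slide, so the slide block and the replicate block are the same fit. Correlations between groups of the difference between replicates 1 and 2 were 0.0982 to 0.305 over genes, not above 0.1 in every pair of groups, so the numbers are not taken to pair the samples. Plots were drawn with matplotlib in Python.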

Additional observations from a re-analysis of the deposited data

How the results depend on the processing

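Counts of genes of the set called by limma are given as BD_HF, LF_HF and VAD_VAD against LF_LF, which were 3, 12 and 1 as reported. They were 17, 25 (24 lower, 1 higher) and 11 with normexp background correction, 5, 17 and 2 with quantile scaling, 2, 1 and 0 with the 75th percentile over probes above background on all arrays, 0, 0 and 0 with no filter on dim probes, 9, 15 and 6 over probes above background on all 8 arrays, 1, 8 and 0 with the mean over the probes of a gene, 2, 10 and 1 with every probe tested, 15, 21 and 8 with trend and robust variances, 32 (31 lower, 1 higher), 0 and 15 with array weights, 2, 10 and 1 with outlier spots kept, and 3, 12 and 1 from the deposited series table. With the replicate number, which is the slide, as a block, the counts were 3, 8 and 1, and no other call changed. The unadjusted counts were 27, 26 and 23. Leaving out 1 array gave 0 to 25 in BD_HF, 0 to 31 in LF_HF and 0 to 15 in VAD_VAD, each highest without LF_HF replicate 1 and 0 without either LF_LF array. BD_HF against LF_HF gave 0 in each setting but 1, with a range of 0 to 16 on leaving out 1 array. Except for the fit as reported and the fits leaving out 1 array, the share of all genes called is not given here. These counts alone therefore do not show whether the set differed from all genes in a setting. The cause of these changes was not tested.

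Each of the 317 recomputed differences of the 16 called pairs of gene and comparison kept its sign. In VAD_VAD, Adamts1 reversed to -0.0012 with quantile scaling and -0.0216 with the 75th percentile over detected probes, and ran from -0.2853 to 0.4713 without 1 VAD_VAD array; Mmp14 ran from -0.0726 to 0.9163. The detected-probe percentile moved the median of all genes in LF_HF against LF_LF to 0.14, where it was -0.06. With 2 arrays per group the spread rests on few arrays, and signal near background limits Fbn2, Thbs1, Tnc, Mmp9, Mmp12 and Mmp13 to bounds or to single arrays.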

Other observations

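Beyond the set, 1 of 15 TGF-beta pathway genes tested (Tgfb2) and 1 of 12 collagen-modifying genes (Crtap) were called lower in LF_HF than in LF_LF, against 1.99% of all genes. Without LF_HF replicate 1, 3 of each list were called lower in BD_HF, against 6.65% of all genes. In VAD_VAD 1 and 2 were then called lower, against 4.03% of all genes. Among 19 integrins and matrix receptors, Itga8 and Ddr1 were called lower in BD_HF, Itga8, Ddr1 and Ddr2 in LF_HF, and Ddr1 in VAD_VAD. The shares of all genes called lower were 1.16%, 1.99% and 0.521%. Without LF_HF replicate 1 the counts were 6 lower in BD_HF and 5 lower in VAD_VAD, against 6.65% and 4.03% of all genes. Ddr1, a receptor tyrosine kinase that binds collagen, had normalised signals of 0.249 and 0.183 on BD_HF arrays, 0.243 and 0.138 on LF_HF arrays, 0.241 and 0.274 on VAD_VAD arrays, and 1.75 and 1.58 on LF_LF arrays. It fell by 2.96 in BD_HF, 3.18 in LF_HF and 2.69 in VAD_VAD (limma adjusted p = 0.0186, 0.0116 and 0.0374). The 6 arrays of the other diets sat together below LF_LF.

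Probes of the same gene did not always share a direction. Of 13 genes of the set with several retained probes, the signs differed for 7 in BD_HF against LF_HF, for 3 in LF_HF against LF_LF (Fbn1, Mfap2 and Adamts2), and for Adamts2 alone in each of the comparisons of BD_HF and VAD_VAD with LF_LF.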
